A study of Mus musculus with 39 samples.

Results

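The comparison described here is of heart microRNAs (miRNAs) in female mice of 9 weeks and of 6 weeks. Every library titled as female and of either age was taken, 5 at 9 weeks and 6 at 6 weeks, 11 of the 39 libraries of the series, and no other age entered. All the mice were wild-type FVB/NJ, an inbred laboratory strain, and the labels name no treatment or engineered allele in either group. The sample tag reads whole heart while the protocol describes frozen ventricular apexes, so the piece of heart sequenced is stated in 2 ways. Nothing in the labels says that the libraries came from separate animals, so the p-values below measure the spread between these libraries, which may be technical. Whether the age difference coincided with a difference in library preparation is not stated either.

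A miRNA is cut from a hairpin precursor, and either arm of the hairpin, written 5p or 3p, can be kept as the mature strand that guides a silencing complex to messenger RNAs. Pairing is led by the seed, a short stretch near the 5′ end, so miRNAs with one seed are treated as a family. In heart muscle some miRNAs lie inside myosin heavy chain genes and are made with them: miR-208a in Myh6, the adult fast myosin of the mouse ventricle, miR-208b in Myh7, the slow myosin that dominates before birth and falls afterwards, and miR-499 in Myh7b. Blood left in the tissue brings its own miRNAs, and clusters of miRNAs cut from one transcript share their transcription.

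The mature sequences on which the results turn are given first, 5′ to 3′ and credited to RefSeq on GRCm38.p6, with the seed, bases 2 to 8, in capitals. RefSeq held a mature sequence for 271 of the 316 arms tested. The first set is shown because 1 of these myosin-gene miRNAs changed and the others did not pass the test. miR-208b-3p and miR-208a-3p share a seed and miR-499-5p differs from it in the last seed base.
miR-208b-3p: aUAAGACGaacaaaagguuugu
miR-208a-3p: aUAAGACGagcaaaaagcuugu
miR-499-5p: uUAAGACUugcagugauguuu
The next set is shown because its members share a seed while only some of them passed the test, first in the miR-30 family and then in the miR-29 family.
miR-30a-5p: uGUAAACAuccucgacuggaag
miR-30e-5p: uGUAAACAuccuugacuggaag
miR-30c-2-5p: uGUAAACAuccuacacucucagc
miR-29a-3p: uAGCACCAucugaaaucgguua
miR-29b-2-3p: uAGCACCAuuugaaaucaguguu
miR-29c-3p: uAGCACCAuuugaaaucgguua
The last set holds miR-19a and miR-19b, which rose, and miR-130a, miR-130b and miR-301a, which fell, although their seeds overlap with a shift of 1 base. It also holds the other members of the cluster from which miR-19a and miR-19b are cut.
miR-19a-3p: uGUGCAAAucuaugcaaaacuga
miR-19b-1-3p: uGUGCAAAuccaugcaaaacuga
miR-130a-3p: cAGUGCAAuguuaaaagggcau
miR-130b-3p: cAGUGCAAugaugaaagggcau
miR-301a-3p: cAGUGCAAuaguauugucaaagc
miR-17-5p: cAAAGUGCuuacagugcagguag
miR-18a-5p: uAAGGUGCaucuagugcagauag
miR-20a-5p: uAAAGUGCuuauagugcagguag
miR-92a-1-3p: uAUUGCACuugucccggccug

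The deposited count files listed 1451 features, each a mature arm at one genomic locus, with 6842104 to 12930196 counts per library. Where an arm had no count, its level could still have been as high as 3 counts, which is 0.218 to 0.489 counts per 1000000 counts of the library (CPM) and covers counting error only. The library labelled 6 weeks, replicate 1, stood apart, with 43.6% of its counts on miR-143-3p, against 14.2% to 20.1% on the most abundant arm of each other library. It lay with 6-week library 6 apart from 6-week libraries 2 to 5 on the first 2 principal components, which held 49.0% and 31.9% of the variance, while the 5 libraries of 9 weeks lay together. The median coefficient of variation of an arm was 21.4% over the 6 libraries of 6 weeks, 10.3% over 6-week libraries 2 to 5, and 10.2% over the 5 libraries of 9 weeks. In 117 of the 316 arms tested both of the odd 6-week libraries lay above the other 4, and in 91 both lay below. Results are therefore given with and without them where it matters. Heart muscle markers were abundant at both ages: the muscle list summed to 83768 to 101963 CPM at 6 weeks and 69732 to 91579 CPM at 9 weeks. CPM here is scaled by TMM, which sets the libraries level on the bulk of arms, and reads are not normalized for ligation bias, so levels of different miRNAs are not compared.

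At 9 weeks 93 of 316 arms (29.4%) differed from 6 weeks by edgeR's quasi-likelihood test at a Benjamini-Hochberg adjusted p under 0.05. Of these, 34 were higher (10.8%) and 59 lower (18.7%). All 9-week libraries lay above all 6-week libraries in 26 arms (8.23%) and below them in 47 (14.9%), so that 73 arms (23.1%) showed no overlap. Most changes were modest: 20 called arms differed by more than 2-fold, 8 of them higher and 12 lower at 9 weeks, and for 101 arms the 95% interval of the difference stayed within 0.5 on the log2 scale of no change. With the totals of the files in place of TMM the split moved to 12 higher and 105 lower, since that scaling shifts the median difference of all arms from -0.05 to -0.29 on the log2 scale. Without 6-week libraries 1 and 6 the test called 182 arms, 90 higher and 92 lower, which included 92 of the 93.

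**Figure D1:**
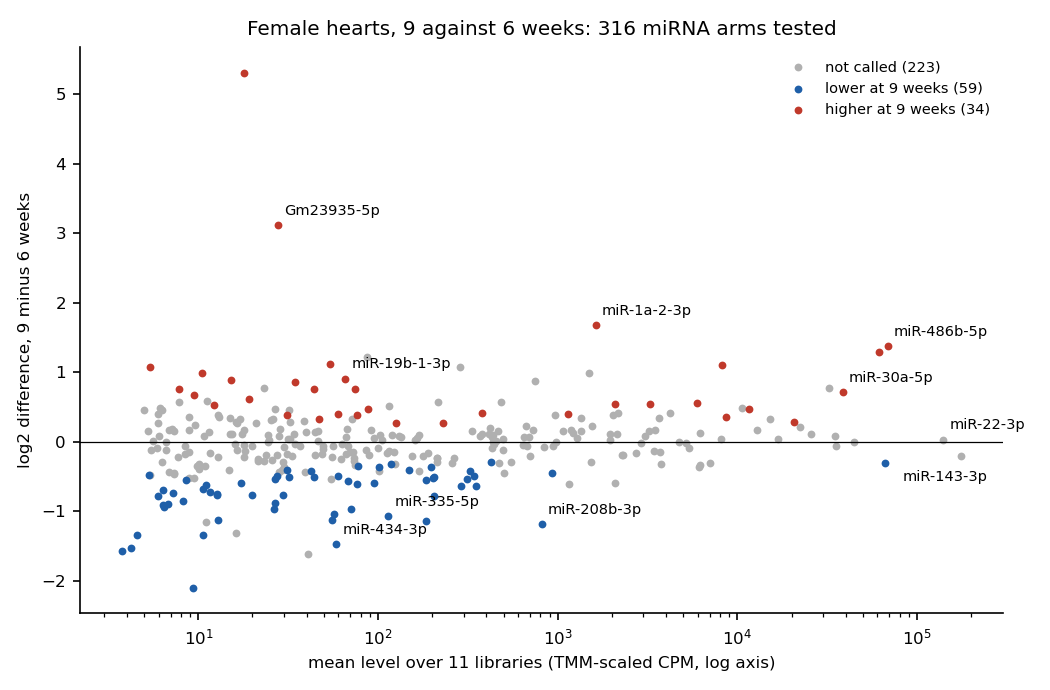
Log2 difference of each of the 316 tested arms, 9 minus 6 weeks, against its mean level over the 11 libraries in TMM-scaled CPM on a log axis; red points were called higher (34), blue lower (59) and grey not called. Most falls lie in the lower part of the range of levels, while miR-486b-5p, miR-486a-5p and miR-30a-5p rose among the most abundant arms.

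Among the miRNAs of the myosin genes, miR-208b-3p fell. Its level was 823 CPM in the lowest 6-week library, 1191 at the median and 1260 in the highest, and 452, 548, 473, 412 and 515 CPM in 9-week libraries 1 to 5. Every 9-week library lay below every 6-week library, and the lowest 6-week values were those of libraries 1 and 6. The log2 difference was -1.19 ± 0.14 (SE), a 2.28-fold fall, with an edgeR adjusted p of 9.45e-05. This arm lies at chr14:54975710-54975731 on the minus strand of GRCm38, in an intron of Myh7. Its neighbour miR-208a-3p, in an intron of Myh6 at chr14:54949072-54949093, ranged from 884 to 1261 CPM with a median of 945 at 6 weeks. At 9 weeks it stood at 905, 1060, 910, 1046 and 968 CPM, within that range. Its log2 difference was -0.01 ± 0.10 with an edgeR adjusted p of 0.954. The arm miR-499-5p lies at chr2:155622893-155622913 within Myh7b and ranged from 1019 to 1569 CPM with a median of 1295 at 6 weeks. Its 9-week values of 1150, 1676, 1418, 1498 and 1416 CPM overlapped these, and the log2 difference of 0.15 ± 0.12 did not pass the test (edgeR adjusted p = 0.363). Over the 5 tested arms of these 3 genes, 1 fell and 0 rose, where 18.7% of all arms tested fell. Their median log2 difference was -0.01 against -0.05 over all 316 arms.

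**Figure D2:**
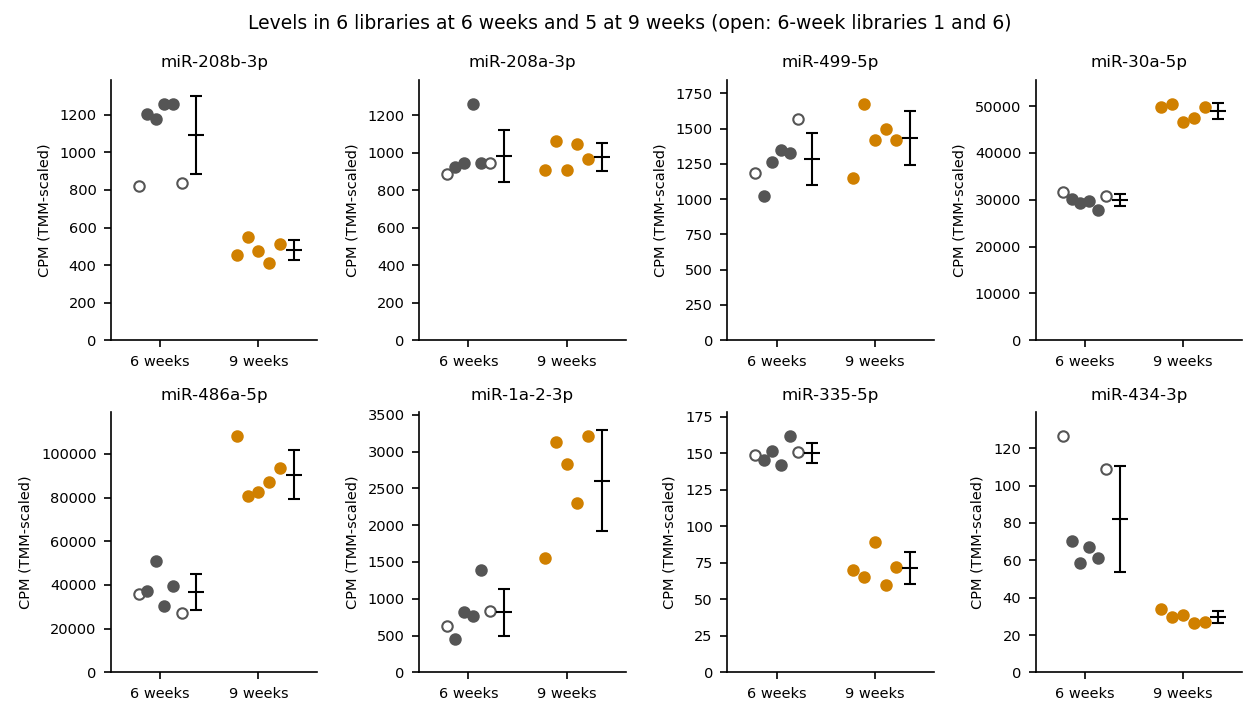
TMM-scaled CPM of 8 arms in each library, 6 libraries of 6 weeks (grey; libraries 1 and 6 open) and 5 of 9 weeks (orange), with the mean and SD as black bars; all axes start at 0. The 2 ages do not overlap for miR-208b-3p, miR-30a-5p, miR-486a-5p, miR-1a-2-3p, miR-335-5p and miR-434-3p, and overlap for miR-208a-3p and miR-499-5p.

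miR-1a and miR-133a, the most widely studied miRNAs of striated muscle, are cut from the same transcripts at 2 loci; both miR-1a arms of the 3p side rose, and 1 of the miR-133a arms fell. The mature miR-1a sequence was counted at both loci, and how the reads were divided between them is not stated. At the chromosome 18 locus miR-1a-2-3p ranged from 449 to 1392 CPM with a median of 794 at 6 weeks, and stood at 1548, 3130, 2827, 2305 and 3212 CPM at 9 weeks. The 2 ages did not overlap, and the log2 difference was 1.68 ± 0.27 (edgeR adjusted p = 0.000732). At chr2:180389096-180389117 miR-1a-1-3p ranged from 2102 to 10738 CPM with a median of 5244 at 6 weeks, and stood at 7703, 14034, 12648, 10734 and 13156 CPM at 9 weeks. Here the groups overlapped, and the log2 difference of 1.10 ± 0.35 passed the test narrowly (edgeR adjusted p = 0.0313), with adjusted p of 0.0533 to 0.0735 when any of 6-week libraries 2, 4 or 6 or 9-week libraries 2 to 5 was left out. With the counts of both loci summed the log2 difference was 1.24 ± 0.33. miR-133a-2-3p, at chr2:180398437-180398458, ranged from 66451 to 79428 CPM with a median of 73560 at 6 weeks. Its 9-week values were 52009, 63290, 61761, 59520 and 57833 CPM, all lower. The fall was small, -0.31 ± 0.08 on the log2 scale (edgeR adjusted p = 0.00981), and was not called without the filter on low counts (adjusted p = 0.177). At the chromosome 18 locus miR-133a-1-3p had a log2 difference of -0.30 ± 0.22 with overlapping groups and was not called (edgeR adjusted p = 0.315). Of 13 tested arms on the heart and skeletal muscle list, these 2 miR-1a arms rose, miR-133a-2-3p and miR-208b-3p fell, and 9 were not called. That share of called arms was near the 29.4% of all arms tested. The median log2 difference of the list was -0.01. By file totals alone 1 of its arms rose and 4 fell, where 12 and 105 of all 316 arms did.

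On the red blood cell list 3 of 7 tested arms rose, both miR-486 5p arms and miR-451a-5p, and 4 were not called. Among all arms tested 10.8% rose. miR-486, which developing red cells and muscle both make, is counted on both strands of one locus in the gene Ank1. One strand is counted as miR-486a at chr8:23142587-23142608 and the other as miR-486b at chr8:23142629-23142649. The division of reads between the strands is uncertain, so the rises of the 2 arms may not be separate observations. miR-486a-5p ranged from 27303 to 50753 CPM with a median of 36466 at 6 weeks, and stood at 108206, 80817, 82483, 86985 and 93676 CPM at 9 weeks. The ages did not overlap, and the log2 difference was 1.30 ± 0.15 (edgeR adjusted p = 7.76e-05). For miR-486b-5p the mean was 39802 CPM at 6 weeks and 103003 CPM at 9 weeks, a log2 difference of 1.37 ± 0.20 with an edgeR adjusted p of 0.0004. miR-451a, a miRNA that red blood cells carry at high level, ranged from 1909 to 3965 CPM with a median of 2554 at 6 weeks. At 9 weeks it stood at 3540, 3668, 2838, 4813 and 4949 CPM, overlapping the range of 6 weeks, and the log2 difference of 0.55 ± 0.19 was just past the threshold (edgeR adjusted p = 0.0479). Leaving out 6-week library 3, or 9-week library 1, 2, 4 or 5, moved that p to 0.0506 to 0.127. miR-144-3p, cut from the same transcript as miR-451a, had a log2 difference of 0.58 ± 0.22 that was not called (edgeR adjusted p = 0.0652). All 7 tested arms on the red blood cell list had positive differences (6 by file totals alone), with a median of 0.57 against -0.05 over all arms. Without 6-week libraries 1 and 6 all 7 rose, where 90 of all 316 arms did. The list, most of whose counts are miR-486, which muscle also makes, summed to 56049 to 117411 CPM at 6 weeks and 174197 to 238665 CPM at 9 weeks. In bulk tissue more cells of a type and more RNA per cell cannot be told apart, and the part of blood in the other differences below was not tested.

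The marker lists of other cell types were counted in the same way. On the white blood cell list miR-155-5p, known from activated lymphocytes and macrophages, rose from 51.9 ± 3.0 CPM (SD, n = 6) to 68.7 ± 8.06 CPM (SD, n = 5). miR-223-3p, a neutrophil and monocyte miRNA, had a log2 difference of -0.60 ± 0.15 and fell. The other 5 of the 7 arms were not called, and over all arms tested 29.4% were called. Both endothelial arms, of miR-126a, and all 4 smooth muscle arms, of miR-143 and miR-145a, were not called. miR-143-3p, the arm with the most counts over the 11 libraries, stood at 568065 CPM in 6-week library 1, between 87065 and 119582 CPM in the other 5 and between 154103 and 171243 CPM at 9 weeks. Its log2 difference was -0.21 ± 0.45 with all libraries and 0.55 without 6-week library 1, so its direction rests on that library. On the fibroblast and matrix list 4 of 10 arms fell and 0 rose, with a median of -0.22, where 18.7% of all arms tested fell. Without 6-week libraries 1 and 6, 7 fell and 1 rose, where 92 and 90 of all 316 arms did. The 4 were miR-199a-1-5p, miR-199a-2-5p, miR-199b-5p and miR-214-3p, from the Dnm3os and related loci active in fibroblasts. The first 2 of these are loci of one mature sequence. The 3p arms of the miR-199 hairpins, which held more counts, were not called (miR-199a-1-3p -0.05, miR-199a-2-3p -0.18 and miR-199b-3p -0.20). miR-199b-5p had the largest of these falls, from 74.3 ± 10.3 CPM (SD, n = 6) to 36.3 ± 4.18 CPM (SD, n = 5), with no overlap and a log2 difference of -1.03 ± 0.12 (edgeR adjusted p = 8.59e-05). By contrast miR-21a-5p, a miRNA raised in cardiac fibrosis, had a log2 difference of 0.12 ± 0.10 and was not called.

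In the miR-30 family, abundant in heart muscle, miR-30a rose with little spread between libraries. miR-30a-5p, at chr1:23272274-23272296, ranged from 27748 to 31615 CPM with a median of 29922 at 6 weeks and stood at 49826, 50517, 46647, 47501 and 49906 CPM at 9 weeks. The ages were far apart relative to the spread within either, and the log2 difference was 0.71 ± 0.06 with an edgeR adjusted p of 3.06e-05. miR-30d-5p, with the same seed, rose less, by 0.29 ± 0.08 on the log2 scale (edgeR adjusted p = 0.0127). miR-30e-5p, which differs from miR-30a-5p at 1 base, had a log2 difference of 0.22 ± 0.10 (edgeR adjusted p = 0.114), and miR-30c-2-5p, cut near miR-30a on chromosome 1, one of -0.34 ± 0.19 (edgeR adjusted p = 0.189). Neither was called, and the 95% interval of the miR-30e-5p difference reached up to 0.44. Of 12 tested arms 3 rose and 0 fell, with a median of 0.26, where 10.8% of all arms tested rose. By file totals alone 1 rose and 4 fell, where 12 and 105 of all 316 arms did. Without 6-week libraries 1 and 6, 8 rose and 0 fell, where 90 and 92 of all 316 arms did.

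In the miR-29 family, whose known targets include collagens and other matrix genes, all 6 tested arms had positive differences (5 by file totals alone) and 2 rose. The 2 were miR-29b-2-3p and miR-29b-1-3p, 2 loci of one mature sequence, and 10.8% of all arms tested rose. miR-29b-1-3p, the low-level copy, rose from 3.54 to 7.55 CPM between the group means (1.07 ± 0.22). miR-29b-2-3p ranged from 40.5 to 85.3 CPM with a median of 44.7 at 6 weeks, and stood at 75.1, 119, 89.0, 96.7 and 97.6 CPM at 9 weeks. Its 2 highest 6-week values were those of libraries 1 and 6, which overlapped the 9-week range, and the log2 difference was 0.76 ± 0.22 (edgeR adjusted p = 0.0217). Without 9-week library 2 the adjusted p was 0.0622. miR-29a-3p showed the same arrangement, with 2089 and 2579 CPM in 6-week libraries 1 and 6, 1356 to 1626 CPM in the other 4 and 2160 to 2513 CPM at 9 weeks. Its log2 difference of 0.38 ± 0.16 was not called (edgeR adjusted p = 0.0848), nor was that of miR-29c-3p, 0.16 ± 0.16. Without 6-week libraries 1 and 6 all 6 arms of the family were called higher, where 90 of all 316 arms were. By file totals alone 1 was, where 12 of all 316 were.

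**Figure D3:**
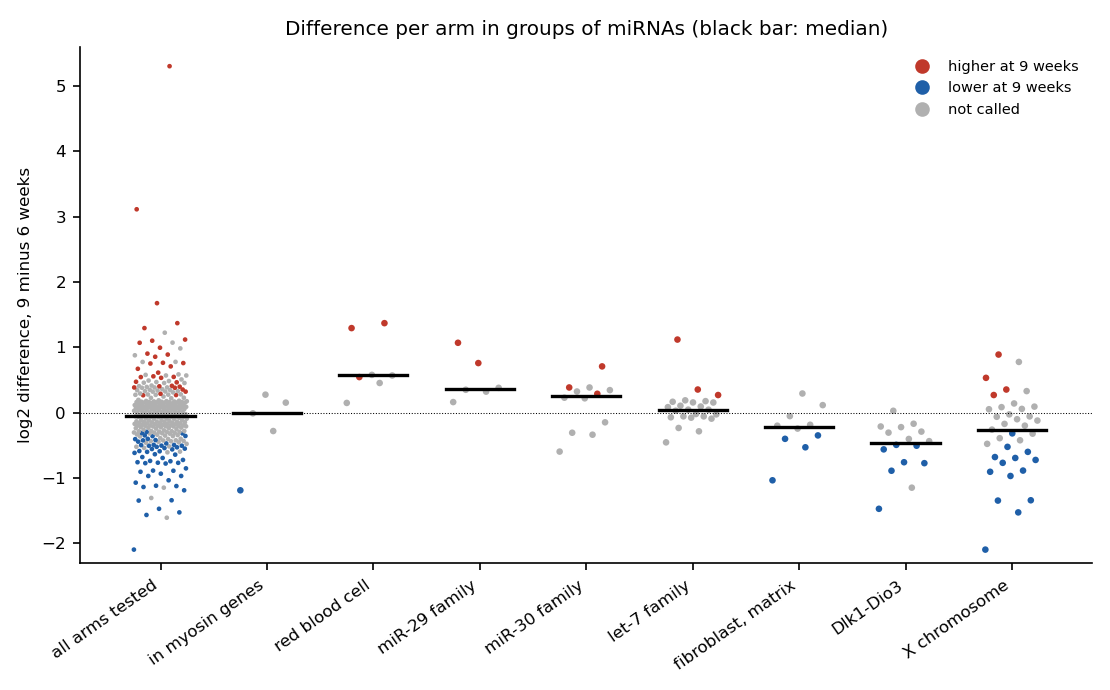
Log2 difference, 9 minus 6 weeks, of each tested arm in 8 lists of miRNAs and of all 316 arms, coloured by call, with the median as a black bar. The red blood cell (median 0.57), miR-29 (0.37) and miR-30 (0.26) lists lie above the median of all arms, and the Dlk1-Dio3 (-0.46), X chromosome (-0.26) and fibroblast (-0.22) lists below it.

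The cluster in the host transcript Mir17hg, known for driving cell proliferation and for its role in heart growth in the mouse, split by member. miR-19b-1-3p, at chr14:115044358-115044380, ranged from 28.9 to 65.0 CPM with a median of 46.0 at 6 weeks, and stood at 89.8, 100, 72.2, 96.3 and 80.7 CPM at 9 weeks. All 9-week values were higher, and the log2 difference was 0.91 ± 0.19 (edgeR adjusted p = 0.00374). miR-19a-3p, a low-level arm at 7.10 CPM at the 6-week median, had a log2 difference of 1.00 ± 0.22 (edgeR adjusted p = 0.00524). miR-19b-2-3p, the copy in the related X chromosome cluster, had one of 0.89 ± 0.20. All 3 tested arms with the seed GUGCAAA thus rose, where 10.8% of all arms tested rose. miR-19b-2-3p has the same mature sequence as miR-19b-1-3p, so its rise is not a separate observation. In the same Mir17hg transcript miR-17-5p ranged from 41.8 to 52.3 CPM with a median of 47.9 at 6 weeks and stood at 34.3, 37.8, 36, 37.3 and 32.5 CPM at 9 weeks. Those values were all lower, and the log2 difference was -0.42 ± 0.09 (edgeR adjusted p = 0.00333). miR-18a-5p also fell (-0.93 ± 0.21) from a median of 8.56 CPM, and miR-20a-5p and miR-92a-1-3p, at -0.18 and -0.19, were not called. Of the 4 tested arms with the seed AAAGUGC, 1 fell and 0 rose, where 18.7% of all arms tested fell.

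The seed AGUGCAA, which is that of miR-19 shifted by 1 base, marked 4 tested arms. Of these 3 fell, where 18.7% of all arms tested fell. For the fourth, miR-301b-3p, the seed was read from the GENCODE hairpin, as RefSeq held no mature sequence; its log2 difference was -1.31 ± 0.82, with overlapping groups, and was not called. miR-130a-3p ranged from 967 to 1112 CPM with a median of 1055 at 6 weeks and stood at 841, 787, 791, 729 and 713 CPM at 9 weeks, with no overlap. The log2 difference was -0.44 ± 0.08 (edgeR adjusted p = 0.00112). miR-301a-3p, in an intron of Ska2 at chr11:87113054-87113076, ranged from 335 to 506 CPM with a median of 407 at 6 weeks. Its 9-week values of 276, 279, 280, 259 and 249 CPM were all lower, and the log2 difference was -0.64 ± 0.11 (edgeR adjusted p = 0.00116). miR-130b-3p also fell and had a log2 difference of -0.74 ± 0.22, with overlapping groups. These arms outside the rule for named arms were chosen after their values were seen, as were the seeds.

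The imprinted Dlk1-Dio3 domain of chromosome 12, whose miRNAs are expressed from the maternal chromosome, is known for high activity before birth. It had 16 tested arms of 90 rows, of which 7 fell, 0 rose and 9 were not called, where 18.7% of all arms tested fell. In 15 of the 16 the difference was negative, with a median of -0.46. miR-434-3p, at chr12:109594565-109594586, ranged from 58.6 to 127 CPM with a median of 68.7 at 6 weeks, and stood at 34.1, 29.8, 30.8, 26.5 and 26.8 CPM at 9 weeks. All 9-week values were lower, and the 2 highest values of 6 weeks were again those of libraries 1 and 6. Its log2 difference was -1.47 ± 0.21 (edgeR adjusted p = 0.0004), the largest fall among called arms of 20 CPM or more. Both arms of miR-136 fell, by 0.76 and 0.56 on the log2 scale for 5p and 3p, while miR-127-3p, the most abundant arm of the domain, had a difference of -0.29 and was not called. Without 6-week libraries 1 and 6 12 of the 16 arms fell, where 92 of all 316 arms did. miR-335-5p lies in an intron of Mest, an imprinted growth gene on chromosome 6, at chr6:30741314-30741336. It ranged only from 142 to 162 CPM with a median of 150 at 6 weeks, and stood at 70.3, 65.3, 89.5, 60.0 and 72.0 CPM at 9 weeks. The ages did not overlap, and the log2 difference was -1.07 ± 0.10 (edgeR adjusted p = 3.06e-05). The other arm, miR-335-3p, had a log2 difference of -0.42 ± 0.27 with overlapping groups and was not called.

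On the X chromosome 14 of 37 tested arms fell and 4 rose, with a median of -0.26, where 18.7% of all arms tested fell and 10.8% rose. By file totals alone 18 fell and 1 rose, where 105 and 12 of all 316 arms did. Without 6-week libraries 1 and 6, 20 fell and 7 rose, where 92 and 90 of all 316 arms did. Of the 14 falls 10 came from 2 clusters. In the cluster from miR-322, which cells raise as they leave the cell cycle for muscle differentiation, to miR-450b, 5 of 9 arms fell and 0 rose. miR-450a-2-5p, at chrX:53048339-53048360, ranged from 77.6 to 109 CPM with a median of 86.8 at 6 weeks and stood at 44.4, 50.7, 50.2, 44.5 and 41.6 CPM at 9 weeks. Those values were all lower, and the log2 difference was -0.97 ± 0.11 (edgeR adjusted p = 7.76e-05). miR-542-3p (-0.89 ± 0.15), miR-542-5p (-1.34) and miR-322-3p (-0.52 ± 0.10) fell with it, while miR-322-5p, the most abundant arm, had a difference of -0.20 and was not called. In the second cluster, in introns of the chloride channel gene Clcn5, 5 of 6 arms fell, among them miR-532-5p (-0.32 ± 0.09) and miR-188-5p (-1.53 ± 0.20), the latter from 6.04 to 2.06 CPM. The 4 X-linked rises were let-7f-2-5p, miR-98-5p, miR-19b-2-3p and miR-547-3p. The sequence of let-7f-2-5p is also counted on chromosome 13 and that of miR-19b-2-3p on chromosome 14. The chromosome 14 locus held 80.7% of miR-19b counts at 6 weeks and 81.2% at 9 weeks. The rises of these 2 arms therefore cannot be placed on the X from these counts. Among the falls, miR-450a-1-5p and miR-450a-2-5p are loci of one sequence, both in the miR-322 cluster.

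**Figure D4:**
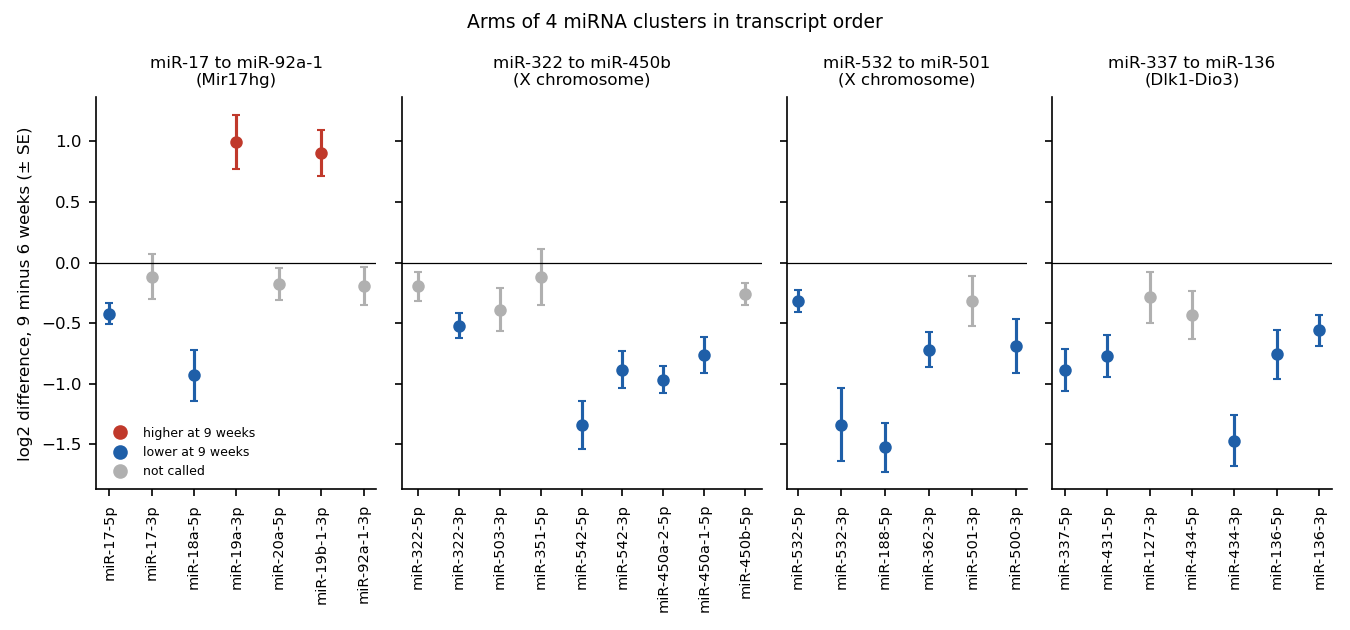
Log2 difference, 9 minus 6 weeks, with its SE for each tested arm of 4 clusters in the order of the transcript, red where higher, blue where lower and grey where not called. In the Mir17hg cluster miR-19a-3p (1.00) and miR-19b-1-3p (0.91) lie above 0 between members below it, whereas every point of the other 3 clusters lies below 0.

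Among the remaining arms named by size of change, miR-331-3p, in an exon of Vezt at chr10:93963783-93963803, fell from 73.5 to 33.9 CPM between the group means (-1.12 ± 0.12). miR-497a-5p, a miR-15 family member that restrains the cell cycle in newborn mouse heart muscle, fell from 245 to 112 CPM (-1.14 ± 0.20). On the miR-15 and miR-16 list 4 of 13 arms fell and 1, miR-15b-5p, rose, or 5 and 0 by file totals alone. For all arms tested these shares were 18.7% and 10.8% with TMM, and by file totals alone 105 of 316 fell and 12 rose. miR-378a-5p, from an intron of Ppargc1b, a regulator of mitochondrial metabolism, fell by 0.64 ± 0.09, while miR-378a-3p, the abundant arm of that hairpin, had a difference of -0.06 ± 0.11. miR-152-3p fell by 0.78 ± 0.16 and miR-872-3p by 0.97 ± 0.28. At 6 weeks miR-872-3p stood at 55.9 and 52.1 CPM in libraries 1 and 6 and at 19.7 to 27.8 CPM in libraries 2 to 5. At 9 weeks it stood at 14.9 to 20.3 CPM, so the groups overlapped. The call for miR-872-3p was lost without 9-week library 4 (edgeR adjusted p = 0.0507).

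Rises of the same kind included miR-125a-5p, a relative of the worm miRNA lin-4, which ranged from 4065 to 5547 CPM with a median of 4976 at 6 weeks and stood at 8547, 7292, 7046, 6576 and 6760 CPM at 9 weeks. The ages did not overlap, and the log2 difference was 0.56 ± 0.10 (edgeR adjusted p = 0.00142), but by file totals alone it was 0.30 and not called (adjusted p = 0.157). miR-181a-1-5p rose by 0.47 ± 0.08 and miR-192-5p, best known from liver, gut and kidney, by 0.55 ± 0.12, and neither was called by file totals alone. The sequence of miR-181a-1-5p is also counted as miR-181a-2-5p, which had a difference of 0.04 ± 0.14 and was not called. The share of these counts on miR-181a-1-5p was 46.9% to 61.3% at 6 weeks and 62.0% to 63.0% at 9 weeks. How the reads were divided between the 2 loci is not stated. In the let-7 family 3 of 24 tested arms rose and 0 fell, with a median of 0.05, a share of rises near the 10.8% of all arms tested. By file totals alone 1 let-7 arm rose and 2 fell, where 12 and 105 of all 316 arms did. let-7j-5p had the largest rise of the family (1.12 ± 0.18), from 35.3 to 76.7 CPM. The predicted miRNA gene Gm23935 rose from 6.27 ± 3.80 CPM (SD, n = 6) to 53.4 ± 28.3 CPM (SD, n = 5), with a log2 difference of 3.12 ± 0.46. Its sequence recurs in the predicted genes Gm24270, with 2 to 35 raw counts per library at 6 weeks and 153 to 1069 at 9 weeks, and Gm24245, and summing the 3 gave 3.40 ± 0.54. No function is annotated for these genes in the sources used here.

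Hairpins and families were then compared arm by arm. Of 91 hairpins with both arms tested, 54 had differences of the same sign, 5 fell in both arms, 0 rose in both and 0 had opposite calls. In 31 hairpins 1 arm alone was called, and a call in 1 arm with none in the other was not tested as a difference between arms. The 5 hairpins lower in both arms were miR-136, miR-339, miR-455, miR-532 and miR-542. Base composition of the first 20 bases was available for 315 arms: the median GC content was 42.5% in the 34 that rose, 50.0% in the 59 that fell and 45.0% in those not called. Across these arms, which share the same libraries and are not independent replicates, GC content and the log2 difference had a Spearman rho of -0.20 and a Pearson r of -0.02.

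Some miRNAs have one mature sequence at several loci, and the division of counts between such loci is a property of how reads were assigned. Loci were grouped as copies where they shared bases 3 to 20. Some groups therefore hold different miRNAs: miR-103 with miR-107, miR-133a with miR-133b, and miR-378a-3p with miR-378c-5p. In those the share is not that of one mature sequence. For 25 groups of copies the share on one locus was compared between ages. let-7a-2-5p held 80.0%, 93.4%, 89.1%, 89.0%, 89.4% and 80.1% of let-7a counts in 6-week libraries 1 to 6 and 87.5% to 88.2% at 9 weeks. For this share libraries 1 and 6 were alike, as were 3 to 5, and library 2 stood alone. The 9-week libraries lay close together, just below libraries 3 to 5. Other shares grouped the libraries otherwise. miR-16-2-5p held 97.0%, 96.3% and 96.3% of miR-16 counts in 6-week libraries 1, 2 and 6 and 93.0% to 94.0% in 3 to 5. At 9 weeks it held 95.3% to 95.9%. miR-125b-2-5p held 55.2% ± 3.32 (SD, n = 6) of miR-125b counts at 6 weeks. At 9 weeks it held 44.4% ± 1.53 (SD, n = 5), with no overlap (two-sided exact permutation test, p = 0.00216, the smallest that 462 regroupings allow, adjusted p = 0.0541 over 25 groups). After adjustment 0 of the 25 were called, with 3 not overlapping, among them that of miR-378a-3p with miR-378c-5p. A group that alone reached the smallest possible p could not have been called, since that p adjusts to 0.0541. With 6-week library 2 left out 4 were called. Sets of libraries and age cannot be told apart at 9 weeks. For let-7a-2-5p and miR-16-2-5p no 6-week library lay within the narrow range of the 9-week libraries.

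**Figure D5:**
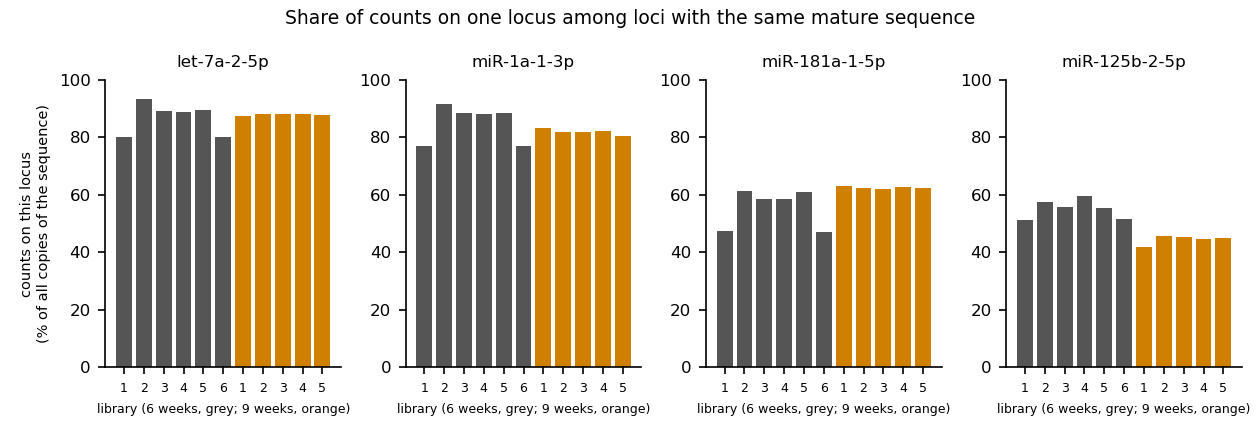
Share of counts on one locus among all loci with the same mature sequence, in percent, per library for let-7a-2-5p, miR-1a-1-3p, miR-181a-1-5p and miR-125b-2-5p; grey bars are 6-week libraries 1 to 6 and orange bars 9-week libraries 1 to 5, with axes from 0 to 100. Libraries 1 and 6 of 6 weeks lie below the others of their age in every panel. For miR-125b-2-5p they stand at 51.2% and 51.6%, against 55.5% to 59.7% in libraries 2 to 5. The 9-week bars are nearly level.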

How the data were processed

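Hearts of female FVB/NJ mice were profiled with the TruSeq small RNA kit on Illumina HiSeq instruments, per the labels. The authors deposited whole-number read counts per mature arm and locus; GRCm38, DESeq and edgeR are named in the submitters' processing notes without role or version. The aligner, and what was done with reads that fit several loci, is not given in the sources used here. Of the 1451 rows, 125 carried an antisense mark and held 6.96% to 16.6% of counts; they were named after the gene on their strand, and 1433 transcripts were found in GENCODE M21. Totals were 6842104 to 12930196 counts.

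Arms with 5 CPM or more in at least 5 of 11 libraries were tested (316), by edgeR 4.0.16 quasi-likelihood with TMM in R 4.3.3 and Benjamini-Hochberg adjustment over all of them, tested on simulated data. Fold changes are log2 differences with SE. Alternatives were other scalings, filters, DESeq2 1.42.0, limma 3.58.1 voom, a replicate block, summed copies, no antisense rows and libraries left out. Named arms were the 10 most abundant, the 12 largest rises and falls of 20 CPM or more among called arms, the muscle, miR-29, red blood cell, miR-126a, miR-143 and miR-145a arms, and the 2 most abundant of each list. The members, lists and this rule were chosen with earlier results of these data known. No pair of libraries within an age was a duplicate, and pairs across ages were not checked.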

Additional observations from a re-analysis of the deposited data

Results flagged for a closer look

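Within an age, 9 of 158 arm and group combinations had 1 library far from the others of its group by Dixon's test, where chance flags about 1 in 20. In 6-week library 1 miR-143-3p stood at 568065 CPM against 87065 to 119582 in the other 5, and miR-143-5p at 225 CPM against 19.98 to 31.8. In 6-week library 4 miR-208a-3p stood at 1261 CPM against 884 to 946, and miR-378a-5p at 420 CPM against 323 to 351. In 9-week library 1 the predicted Gm23935-5p stood at 103 CPM against 33.9 to 51.0, miR-99b-5p at 17590 CPM against 12440 to 13268, and miR-30e-5p at 21603 CPM against 24364 to 25433. In 9-week library 2 miR-1a-1-5p stood at 8.70 CPM against 4.68 to 5.81, and miR-26a-1-5p at 7310 CPM against 6119 to 6388. No cause was tested.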

How the results depend on the processing

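No arm called with all 11 libraries changed sign in any of the alternatives run. Leaving out 1 library at a time gave 78 to 114 called arms, 28 to 45 higher and 47 to 69 lower, and 0 to 4 called locus shares. File totals alone gave 12 higher and 105 lower. Leaving out 6-week libraries 1 and 6, an alternative chosen after seeing the data, gave 182 (90 higher, 92 lower). The other alternatives called 66 to 116 arms: 66 of 230 with the stricter filter, 105 of 1336 with none and 116 with DESeq2. Same-numbered libraries had deviations correlated at -0.14, -0.21, -0.18, 0.04 and 0.10. These values show no sign that the numbers pair the libraries, but over arms that are not independent they cannot exclude it. The replicate block gave 86 calls (38 higher, 48 lower), and under it miR-133a-2-3p (-0.27) and miR-136-5p (-0.55) were not called. Among the arms that the rule named, those that changed sign were all uncalled, and the cause was not tested; other uncalled arms changed sign too. By file totals alone the named arms were miR-22-3p (-0.22), miR-126a-5p (-0.18), miR-145a-5p (-0.12), miR-29c-3p (-0.091), miR-486a-3p (-0.062), miR-499-5p (-0.10), miR-142a-5p (-0.010), miR-21a-5p (-0.12), let-7a-2-5p (-0.086), miR-25-3p (-0.17), miR-30e-5p (-0.015), miR-99b-5p (-0.094), miR-181a-2-5p (-0.19), miR-221-3p (-0.19), miR-26a-2-5p (-0.14) and miR-26a-1-5p (-0.11). Without 6-week libraries 1 and 6 they were miR-143-3p (0.48), miR-378a-3p (0.094), miR-126a-5p (-0.047), miR-133a-1-5p (0.31), miR-141-3p (-0.019), miR-128-1-3p (0.29), miR-92a-1-3p (0.075), miR-16-2-5p (0.061), miR-99b-5p (-0.12) and miR-222-3p (0.32). Under the block they were miR-143-3p (0.086), miR-378a-3p (0.012), miR-133a-1-5p (0.16), miR-208a-3p (0.021), miR-128-1-3p (0.15) and miR-222-3p (0.15). With limma-voom they were miR-143-3p (0.19), miR-27b-3p (0.00094), miR-133a-1-5p (0.0087) and miR-222-3p (0.018), and with upper-quartile factors miR-27b-3p (0.041), miR-378a-3p (0.0042), miR-133a-1-5p (0.015), miR-208a-3p (0.048) and miR-222-3p (0.024). miR-27b-3p and miR-208a-3p also turned positive with DESeq2 size factors (0.015 and 0.017), DESeq2 (0.015 and 0.017), no filter (0.0072 and 0.0075) and summed copies (0.038 for both). Leaving out 1 library at a time gave ranges across 0 for miR-143-3p (-0.27 to 0.55), miR-27b-3p (-0.046 to 0.070), miR-378a-3p (-0.077 to 0.034), miR-133a-1-5p (-0.097 to 0.13), miR-208a-3p (-0.040 to 0.12), miR-128-1-3p (-0.20 to 0.12), miR-16-2-5p (-0.12 to 0.0083) and miR-222-3p (-0.097 to 0.11).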

Other observations

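Further arms that changed were chosen after their values were seen. miR-296-5p and miR-298-5p, cut from one imprinted transcript at the Gnas locus of chromosome 2, both fell, by 1.57 ± 0.22 and 0.85 ± 0.20 on the log2 scale (edgeR adjusted p = 0.000307 and 0.00692), from low levels of 5.39 and 10.4 CPM at 6 weeks. miR-326-3p, in an intron of Arrb1, and miR-330-5p share the seed CUCUGGG. Both fell (-1.12 ± 0.20 and -0.54 ± 0.10) with no overlap between ages, where 18.7% of all arms tested fell. miR-1198-5p, in an intron of Gripap1 on the X chromosome, fell from 14.3 to 3.35 CPM, a log2 difference of -2.10 ± 0.21. miR-490-3p, in an intron of Chrm2, the muscarinic receptor gene of heart muscle, fell from 395 ± 33.8 CPM (SD, n = 6) to 279.8 ± 16.7 CPM (SD, n = 5). miR-210-3p, the miRNA best known for its induction by low oxygen, fell from 68.8 ± 12.3 CPM (SD, n = 6) to 48.9 ± 4.36 CPM (SD, n = 5).

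On the list of miRNAs linked to cardiac hypertrophy and stress, 7 of 36 tested arms fell and 1, miR-23a-3p, rose, with a median log2 difference of -0.06, a share of falls near the 18.7% of all arms tested. By file totals alone 14 fell and 0 rose, where 105 and 12 of all 316 arms did. Without 6-week libraries 1 and 6, 14 fell and 6 rose, where 92 and 90 of all 316 arms did. miR-22-3p, the most abundant arm of that list, had a difference of 0.03 ± 0.08 and was not called. miR-10a-5p stood at 9602 and 9773 CPM in 6-week libraries 1 and 6, between 19964 and 39051 CPM in the other 4, and between 36036 and 46536 CPM at 9 weeks, and was not called (0.78 ± 0.35, edgeR adjusted p = 0.11).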
